A study of Mus musculus with 9 samples.

Results

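The cytosolic ribosomal protein genes are the protein-coding genes whose symbol is Rpl or Rps followed by digits and at most 1 of the letters a, x or l, together with Rplp0, Rplp1, Rplp2 and Rpsa. The rule found 80 of the 54532 genes of the deposited table, 49 named for the large and 31 for the small ribosomal subunit, and used no measured value. RNA from mouse duodenum, depleted of ribosomal RNA, was sequenced with strand information. The 9 libraries form 3 groups of 3 and are named here by group and replicate number. Control mice were wild type and had gluten stimulation that was not enhanced. CeD mice were a delayed-type hypersensitivity (DTH) model of celiac disease with enhanced gluten stimulation. In the CeD+GR group that model, again with enhanced gluten stimulation, had first been given composite nanoparticles of gliadin, a gluten protein fraction, and rapamycin. All 3 groups thus had some gluten, and among them there is no model without the enhanced stimulation and no treatment with particles lacking rapamycin or gliadin. Strain, age, dose and times, and whether each library is a separate animal, are not in the sample labels, so the p-values reflect sample-to-sample spread that may be technical.

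The cytosolic ribosome translates nuclear-encoded mRNAs, and its proteins are made in amounts that match the ribosomal RNA. Most ribosomal protein mRNAs start with a C followed by a run of pyrimidines, the 5′ terminal oligopyrimidine (TOP) motif, through which the mTOR kinase and the RNA-binding protein Larp1 adjust their translation and stability. Rapamycin inhibits mTOR complex 1, and RNA sequencing measures mRNA levels and not translation. In the intestine, dividing crypt cells make more ribosomes than the absorptive cells of the villus.

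Start sites are shown because the TOP motif lies there. The RefSeq promoter table (build GRCm38.p6) held an entry for 60 of the 80 genes, some with several starts. The windows below cover 15 bases before and 15 bases from each annotated start, on the strand of the gene, 5′ to 3′. Capitals mark the longest run of C and T with at least 1 base within 10 bases of the start. The first 4 were chosen for long runs among the genes described below, and the last 4 for short ones.
Rps27, chr3:90213634-90213663, minus strand: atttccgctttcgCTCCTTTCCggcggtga
Rps6, chr4:86857353-86857382, minus strand: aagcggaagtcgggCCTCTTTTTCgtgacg
Rpl7a, chr2:26910792-26910821, plus strand: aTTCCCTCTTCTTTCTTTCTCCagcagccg
Rplp2, chr7:141447636-141447665, plus strand: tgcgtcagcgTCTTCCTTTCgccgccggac
Rps23, chr13:90923107-90923136, plus strand: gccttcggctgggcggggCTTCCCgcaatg
Rpl37a, chr1:72711245-72711274, plus strand: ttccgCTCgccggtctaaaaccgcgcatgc
Rpl24, chr16:55966260-55966289, plus strand: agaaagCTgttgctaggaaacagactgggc
Rpl11, chr4:136053379-136053408, minus strand: ctgaCCCataaggccacggggccggaagtc

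A C at the annotated start followed by at least 4 more C or T was found for 13 of the 60 genes (21.7%) and for 3.01% of the 27025 genes with an entry. A run of at least 8 was found for 28 of the 60 (46.7%), against 16.1% of all, and a run of at least 10 for 22 (36.7%), against 8.30%. The shares overlap, since a run of at least 10 is also a run of at least 8, and an annotated start that is off moves a gene between them. The bases just after the start were found in a GENCODE M21 transcript of the gene for 59 of the 72 entries. The Rpl37a window above ends before the deposited gene start at 72711290. The Rps23 and Rplp2 windows, for example, lie inside genes that start at 90922958 and 141447370. These starts may thus not be the 5′ end of the mRNA, which limits the shares and the sets below. The TATA box letters TATAAA, on either strand 15 to 40 bases before the start, were found for 0 of the 60 genes and for 2.98% of all. For the 12 genes with a C and 4 more C or T at the start that passed the filter on low values, described next, the median log2 difference of CeD+GR from CeD was 0.51, and for the 44 other genes with an entry it was 0.50. The median difference of CeD from control was -0.31 and -0.19 in these sets, and that of CeD+GR from control 0.26 and 0.32. The difference between the sets was not tested.

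Values are FPKM as deposited, fragment counts scaled to gene length and library size, and differences are of log2(FPKM + 0.5), a scale that understates changes of low genes. A gene was tested when its mean over the 9 libraries was at least 0.5 FPKM, which 14683 genes passed, 76 of the 80 ribosomal protein genes among them (46 of the large and 30 of the small subunit). The libraries held 15373260 to 16852104 reads assigned to genes, and each of the 76 held between 134 and 16436 reads in a library. All 10 markers of enterocytes, the absorptive cells of the labelled tissue, passed the filter and had reads in every library. Several libraries stood apart by markers of other cells. The 8 gastric and Brunner gland markers summed to 139929 FPKM in CeD+GR 3 and to at most 50.5 elsewhere, with 4 to 8 of the 8 at 0 in each of the other libraries. The 11 markers of exocrine pancreas summed to 4317 FPKM in CeD 1 and to at most 79.9 elsewhere, and the 6 fat cell markers, of which 5 passed the filter, to 476 FPKM in CeD+GR 2 and to at most 110.6 elsewhere. Paneth cell markers summed to 1045, 1979 and 2105 FPKM in the replicate 1 libraries and to 72.9 to 170.1 in the other 6.

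The ribosomal protein genes took 2.05%, 1.43% and 1.65% of the reads in control 1 to 3, 2.03%, 1.17% and 1.35% in CeD 1 to 3, and 2.43%, 1.26% and 2.81% in CeD+GR 1 to 3. The CeD+GR libraries thus held the highest shares and 1 of the lowest. Per gene, the mean log2 level of the 76 was 6.65 ± 0.041 (SD, n = 3) in control, 6.40 ± 0.196 in CeD and 6.90 ± 0.636 in CeD+GR. The libraries stood at 6.69, 6.61 and 6.66 in control, at 6.63, 6.27 and 6.31 in CeD, and at 7.18, 6.18 and 7.35 in CeD+GR. CeD+GR 1 and 3 lay above all others and CeD+GR 2 below all others, so the CeD+GR group spanned the whole range. In tissue, fewer cells of a type and less RNA per cell cannot be told apart.

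**Figure D1:**
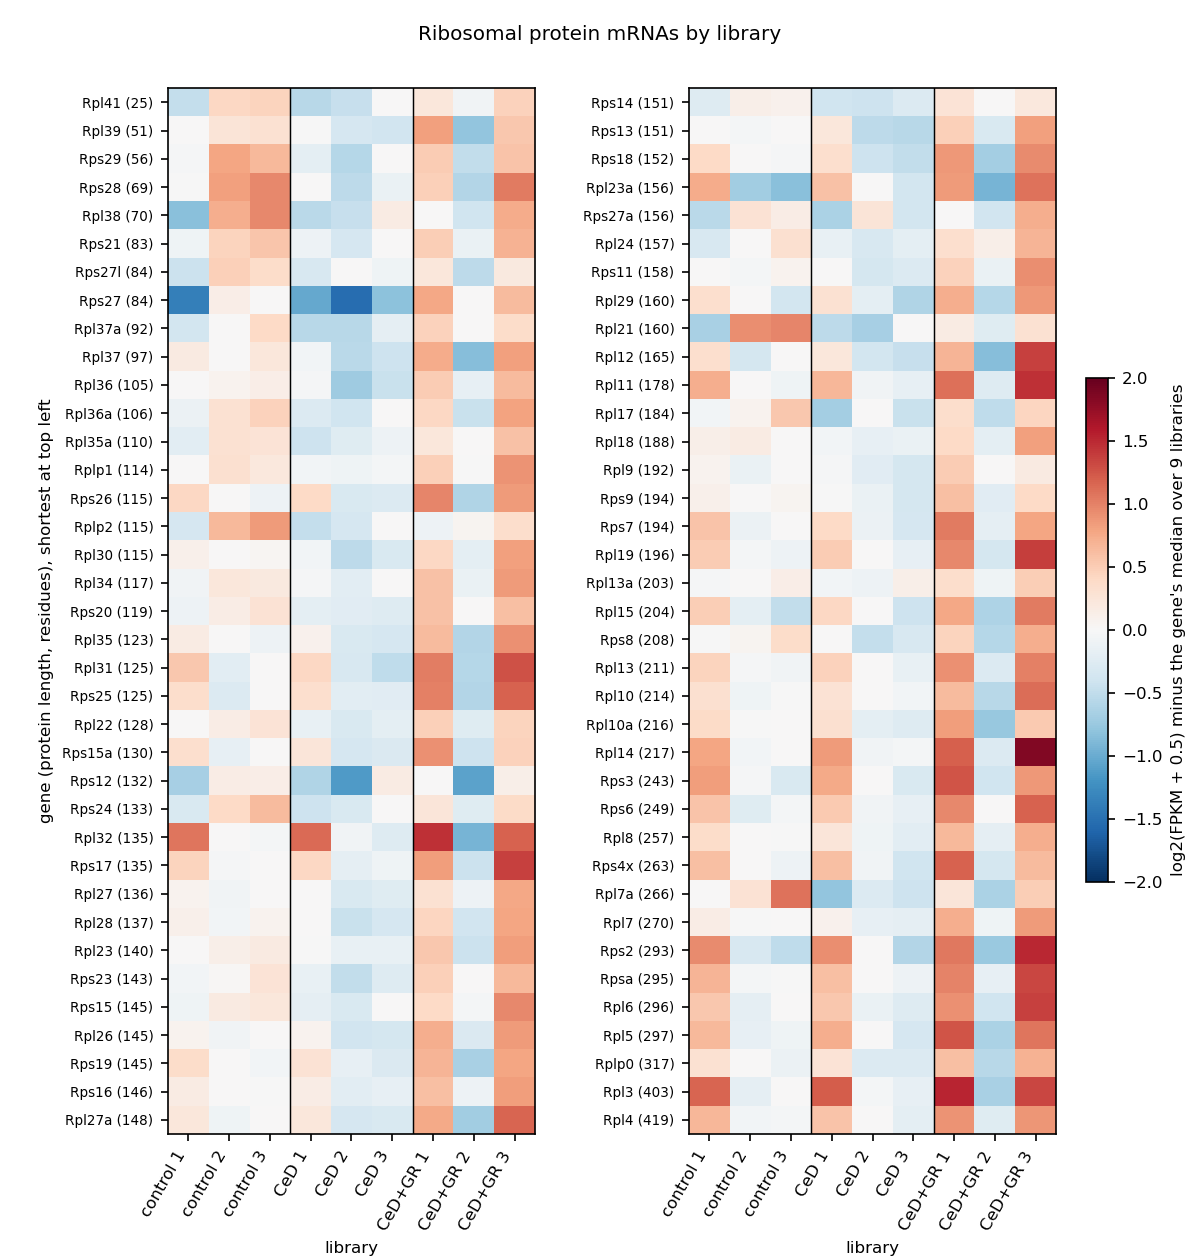
Heat map of 74 of the 76 tested ribosomal protein genes (rows, with protein length in residues, shortest at top left and longest at bottom right) in the 9 libraries (columns). The colour is log2(FPKM + 0.5) minus the gene's median over the 9 libraries. The columns of CeD+GR 1 and CeD+GR 3 are red for most genes (72 and 76 of all 76 above their median) and that of CeD+GR 2 is blue for most (4 above). Replicate 1 of control and CeD is bluer among the short proteins and redder among the long ones.

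The genes moved largely together. Each gene's level in CeD+GR 3 was above the gene's own median over the 9 libraries for 76 of 76 genes, and in CeD+GR 1 for 72, but in CeD+GR 2 for 4, in CeD 2 for 1 and in CeD 3 for 3. CeD+GR 3 was the highest library for 49 genes and CeD+GR 1 for 18. CeD+GR 2 was the lowest for 37, CeD 2 for 19, CeD 3 for 9 and CeD 1 for 8. The ratio of the highest to the lowest library had a median of 2.56 over the genes, from 1.55 for Rpl13a, a large-subunit protein, to 5.29 for Rpl32. A first principal component held 71.0% of the variance of the 76 genes and a second 20.5%. After the mean of the 76 genes in each library was taken out, 38.4% of the variance was left. Both subunits followed the same course, with small-subunit genes 0.156 to 0.285 log2 units above large-subunit genes in every library.

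**Figure D2:**
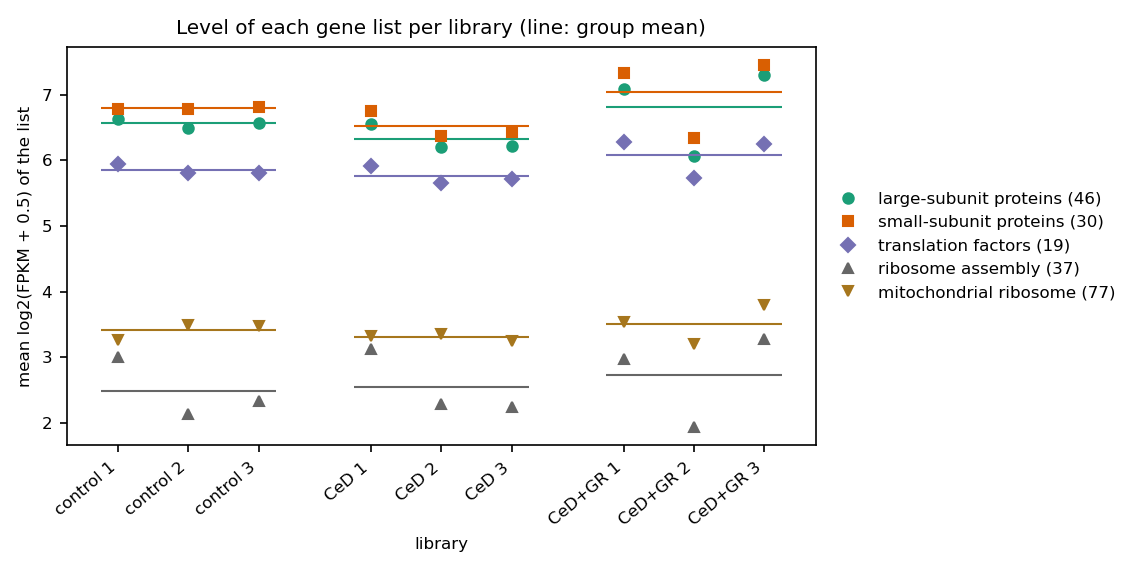
Mean log2(FPKM + 0.5) of 5 gene lists in each library (symbols, number of genes in parentheses) with the mean of each group (lines). Large- and small-subunit genes run in parallel, with CeD+GR 1 and 3 highest and CeD+GR 2 lowest. Ribosome assembly genes are higher in the 3 replicate 1 libraries and CeD+GR 3.

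The stalk recruits translation factors to the large subunit, and 2 of its 3 proteins, Rplp1 and Rplp0, were among the 4 genes with the highest mean FPKM. Rplp1 had the highest mean FPKM of the 80 genes, with 813, 1019 and 938 FPKM in control 1 to 3, 779, 765 and 790 FPKM in CeD, and 1128, 810 and 1524 FPKM in CeD+GR. Every CeD library lay below every control and every CeD+GR library for Rplp1. Rps15, a small-subunit protein, came next in mean FPKM (423), with 353, 424 and 437 FPKM in control, 329.5, 302 and 375 in CeD, and 492, 366 and 731 in CeD+GR. Rplp0, the stalk base, and Rpl41, a very short peptide of 25 residues, followed with means of 407 and 401. Rplp0 stood at 460, 372 and 342 FPKM in control, at 449, 308 and 306 in CeD, and at 567, 253 and 606 in CeD+GR. The groups overlapped for Rplp0, and CeD+GR 2 was the lowest of the 9 libraries. Rpl41 stood at 279, 515 and 526 FPKM in control, at 263, 280 and 387 in CeD, and at 454, 371 and 535 in CeD+GR, so its low libraries included control 1. Rplp2, the partner of Rplp1, stood at 78.8, 155.1 and 178.8 FPKM in control, at 71.1, 78.6 and 99.2 in CeD, and at 92.8, 102.8 and 126.7 in CeD+GR. Control 2 and 3 were the high libraries for Rplp2, a pattern shared by other short proteins described below. Rpsa, the small-subunit protein also known as a laminin receptor, stood at 193, 117 and 119 FPKM in control, at 182, 120 and 112 in CeD, and at 239, 107 and 304 in CeD+GR.

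The low end was formed by genes that overlap others and by relatives made in particular tissues. Rps10, Rpl13a and Rpl24 were the 3 genes for which exons of another gene on the same strand cover over 50% of the principal transcript in the mouse annotation GENCODE M21. The covered share was 53.6%, 59.3% and 71.5%, and among the other 77 genes the highest was 10.7%, for Rpl19. The overlapping genes are the read-through gene RPS10-NUDT3, Gm45713 and Gm28037, and each was listed at 0 reads in all 9 libraries. Apart from the tissue-restricted relatives below, these 3 had the lowest mean FPKM of the list, 0.493 for Rps10, 6.23 for Rpl13a and 12.1 for Rpl24, followed by 18.02 for Rpl21 and 23.7 for Rps15a. Rpl13a stood at 5.64, 5.75 and 6.37 FPKM in control, at 5.49, 5.32 and 6.31 in CeD, and at 7.51, 5.41 and 8.25 in CeD+GR, the narrowest spread of the 76. How reads in exons of more than 1 gene were counted is not given in the sources used here. The FPKM of a gene also depends on the length it was divided by. For the 76 tested genes the deposited lengths had a median of 2.04 times the principal transcript, from no excess to 7.18 times, so the order of the genes by FPKM is an order under these lengths. Divided by the principal transcript instead, Rplp1 remained the highest and Rps10, Rpl13a and Rpl24 the lowest of the same genes.

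**Figure D3:**
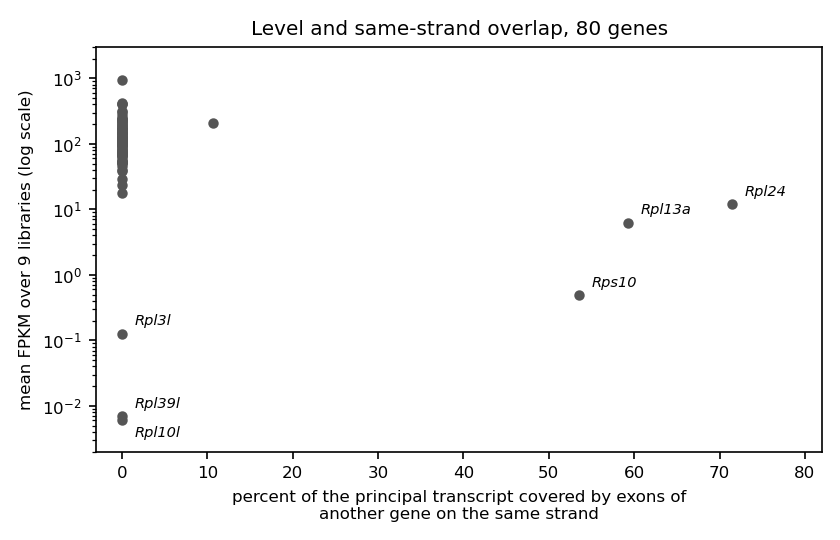
Mean FPKM over 9 libraries (log scale) of the 80 genes against the percent of the principal transcript covered by exons of another gene on the same strand (GENCODE M21). Rps10, Rpl13a and Rpl24 stand alone at over 50% and below the other genes except the 3 relatives Rpl3l, Rpl39l and Rpl10l, which have no such overlap.

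Rps10, a small-subunit protein (ENSMUSG00000052146, mm10 chromosome 17, 27630418 to 27636669), missed the filter with 165 reads over the 9 libraries. It stood at 0.475, 0.384 and 0.282 FPKM in control, at 0.437, 0.841 and 0.604 in CeD, and at 0.698, 0.137 and 0.582 in CeD+GR. Its processed pseudogene Rps10-ps2 on chromosome 16 held 5983 reads, with 102, 66.6 and 58.3 FPKM in control, 92.4, 72.8 and 53.8 in CeD, and 124, 54.4 and 115 in CeD+GR. The low libraries of Rps10-ps2 were thus replicates 2 and 3 of control and CeD and CeD+GR 2. The pseudogene matched 491 of the 498 coding bases of Rps10 (98.6%). A stretch of 60 aligned bases from the GENCODE M21 transcripts, coding positions 379 to 438, is shown because it holds 4 of the differences. Capitals mark the bases that differ.
Rps10: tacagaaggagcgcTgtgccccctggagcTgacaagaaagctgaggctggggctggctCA
Rps10-ps2: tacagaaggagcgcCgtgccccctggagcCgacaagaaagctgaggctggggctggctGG

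Ribosomal protein genes have many such copies. The table listed 295 named pseudogene rows for 59 of the 80 genes, and 53 genes had a row with reads. In each library the pseudogene rows held 4.79% to 7.23% of the reads of these families. The pseudogene rows held 97.7% of the family's reads for Rps10 and 68.7% for Rpl17, a large-subunit protein. They held 43.9% for Rpl21, 41.0% for Rps12, 29.6% for Rpl7a, 27.3% for Rpl23a and 25.5% for Rpl38. Which copy such reads came from cannot be told apart where the sequences are equal, so single values of these genes are uncertain. Rpl38-ps2 and Rps12-ps3, for example, match every coding base of their parents.

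The members named with a final l are relatives of a common ribosomal protein. Rpl3l, the striated muscle relative of Rpl3, was listed at 0 FPKM in 6 libraries and reached 0.374 FPKM in control 2 and 0.734 in CeD+GR 2. Rpl3 itself stood at 147, 57.9 and 65.5 FPKM in control, at 152, 63.7 and 58.7 in CeD, and at 190, 41.6 and 165.9 in CeD+GR. Rpl39l and Rpl10l, known from male germ cells, had reads in 1 library, CeD 1, at 0.0675 and 0.0548 FPKM, beside 71.2 FPKM of Rpl39 and 174 FPKM of Rpl10 in that library. Rps27l, which p53 can induce, was expressed at levels near those of its relative Rps27. It stood at 71.1, 134 and 124.5 FPKM in control, at 76.7, 96.3 and 90.4 in CeD, and at 112, 67.1 and 110 in CeD+GR, and it had the smallest difference of the 76 genes between CeD+GR and CeD. For Rps27 that difference was the largest.

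The comparison of CeD with control shows how ribosomal protein mRNAs stood in the celiac disease model. Of the 76 genes, 72 had lower mean log2 levels in CeD, with a median log2 fold change of -0.21, while 50.4% of all 14683 genes were positive and the median of all was 0.00. No gene passed in limma (adjusted p under 0.05; 0 of 76, and 0.0% of all genes), and limma-voom on recovered reads also called 0. In the ribosomal protein genes an unadjusted p under 0.05 was found for 0 higher and 1 lower gene, against 0.272% and 0.429% of all genes. With the replicate number as a block, 2 of the 76 genes had one, against 193 of all 14683 genes. For 15 genes every CeD library lay below every control library, against 2.49% of all genes, and for 0 every CeD library lay above, against 2.2%. They included Rpl7a, Rpl18, Rpl22, Rpl23, Rpl30, Rpl36, Rpl37, Rpl39, Rplp1, Rps9, Rps14, Rps20 and Rps23.

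Rpl7a, a large-subunit protein (ENSMUSG00000062647, mm10 chromosome 2, 26910764 to 26913318), was the gene with the unadjusted p under 0.05. It stood at 49.2, 59.9 and 105 FPKM in control and at 28.3, 40.8 and 36.7 in CeD, so every CeD library was lower. In limma the log2 fold change was -0.95 (SE 0.38, adjusted p = 1). Without control 3 it was -0.63, and with the reads of its pseudogenes added, -0.68. Rps29, a short small-subunit protein with a zinc finger, stood at 95.3, 168 and 152 FPKM in control and at 84.4, 65.1 and 96.8 in CeD, with a log2 fold change of -0.73 (SE 0.36, adjusted p = 1). Rplp2 had -0.66 (SE 0.34) and Rpl21, a large-subunit protein, -0.82 (SE 0.43), each with adjusted p = 1. Rplp2 was -1.01 without control 1 and -0.43 without control 3, and Rpl21 -1.36 and -0.54. For Rps29, Rplp2 and Rpl21, control 1 lay within the range of the CeD libraries and control 2 and 3 above it. Rpl21 stood at 10.05, 31.1 and 32.4 FPKM in control and at 11.002, 9.96 and 16.1 in CeD. Of the other genes without overlap, Rpl36, a large-subunit protein, stood at 232, 244.5 and 254 FPKM in control and at 227, 142 and 171 in CeD, and Rps14, a small-subunit protein, at 264, 343 and 334 in control and at 239, 236 and 260.5 in CeD. Rpl30, a large-subunit protein, stood at 45.7, 42.7 and 44.0 in control and at 41.0, 29.7 and 34.6 in CeD. The controls of Rpl36 and Rpl30 lay close together, while control 1 of Rps14 lay nearer to CeD 3 than to the other controls. The 4 genes with higher mean log2 levels in CeD were the large-subunit genes Rpl23a, Rpl15 and Rpl3 and the small-subunit gene Rps2, and their replicate 1 libraries were the high ones. Rps2 stood at 315, 131 and 115 FPKM in control and at 311, 163 and 108 in CeD, and Rpl23a at 135, 49.03 and 44.5 in control and 121, 80.1 and 61.97 in CeD.

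Beside this comparison, T cell markers summed to 214 to 371 FPKM in control and to 119 to 162 in CeD. The proliferation markers summed to 195, 46.8 and 44.4 FPKM in control and to 292, 70.2 and 39.98 in CeD. All 9 proliferation markers had higher mean log2 levels in CeD than in control (median 0.37), and 0 of 6 T cell markers did (median -0.94). Their part in the ribosomal protein levels was not tested. With every library scaled to the same sum of FPKM, 18 of the 76 genes were higher in CeD and the median was -0.13, beside 0.08 for all genes. Median-of-ratios rescaling, which divides each library by its median gene ratio, gave -0.20 with 9 genes higher. Quantile normalization, which gives all libraries the same distribution of values, gave -0.15 with 14 higher. The median log2 fold change was -0.34 without CeD 1 and between -0.24 and -0.15 without each of the other libraries of the 2 groups.

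The comparison of CeD+GR with CeD shows the same mRNAs in the model with and without the rapamycin-gliadin particles. All 76 genes had higher mean log2 levels in CeD+GR, with a median log2 fold change of 0.50, from 0.10 for Rps27l to 1.59 for Rps27, while 51.1% of all genes were positive and the median of all was 0.01. No gene passed in limma (0 of 76, and 0.0% of all genes), nor in limma-voom on recovered reads. An unadjusted p under 0.05 was found for 7 higher ribosomal protein genes (Rps27, Rps20, Rpl37a, Rps23, Rpl24, Rpl36 and Rpl30) and 0 lower, against 1.14% and 1.76% of all genes. For 9 genes every CeD+GR library lay above every CeD library, against 3.01% of all genes, and for 0 below, against 3.04%. The 9 were Rpl9, Rpl24, Rpl35a, Rpl37a, Rplp1, Rps14, Rps20, Rps23 and Rps27.

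Rps27, a small-subunit protein with a zinc finger, whose run of pyrimidines at the start is printed above (ENSMUSG00000090733, mm10 chromosome 3, 90212522 to 90213651), differed most. It stood at 51.5, 36.1 and 59.2 FPKM in CeD and at 179, 105 and 163 in CeD+GR, so all CeD+GR libraries were higher. In limma the log2 fold change was 1.59 (SE 0.43, adjusted p = 1). In control, Rps27 stood at 40.2, 114 and 105 FPKM, with control 1 among the CeD libraries. Rps20, a small-subunit protein that like Rpl5 and Rpl11 has been tied to the stabilization of p53 (ENSMUSG00000028234, mm10 chromosome 4, 3831334 to 3835665), had no entry in the promoter table. It stood at 55.4, 53.9 and 53.004 FPKM in CeD and at 95.3, 63.2 and 95.8 in CeD+GR (limma log2 fold change 0.62, SE 0.23, adjusted p = 1). Its 3 CeD libraries were close together and below all others, controls included (59.1, 70.3 and 77.1 FPKM). Rpl37a, a large-subunit protein, had a limma log2 fold change of 0.71 (SE 0.27), from 85.7, 85.98 and 112 FPKM in CeD to 174, 127 and 164 in CeD+GR. Rps23, a protein of the decoding centre, had 0.67 in limma (SE 0.26), from 159, 125 and 148 FPKM to 245, 177 and 277. The adjusted p of limma was 1 for both.

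**Figure D4:**
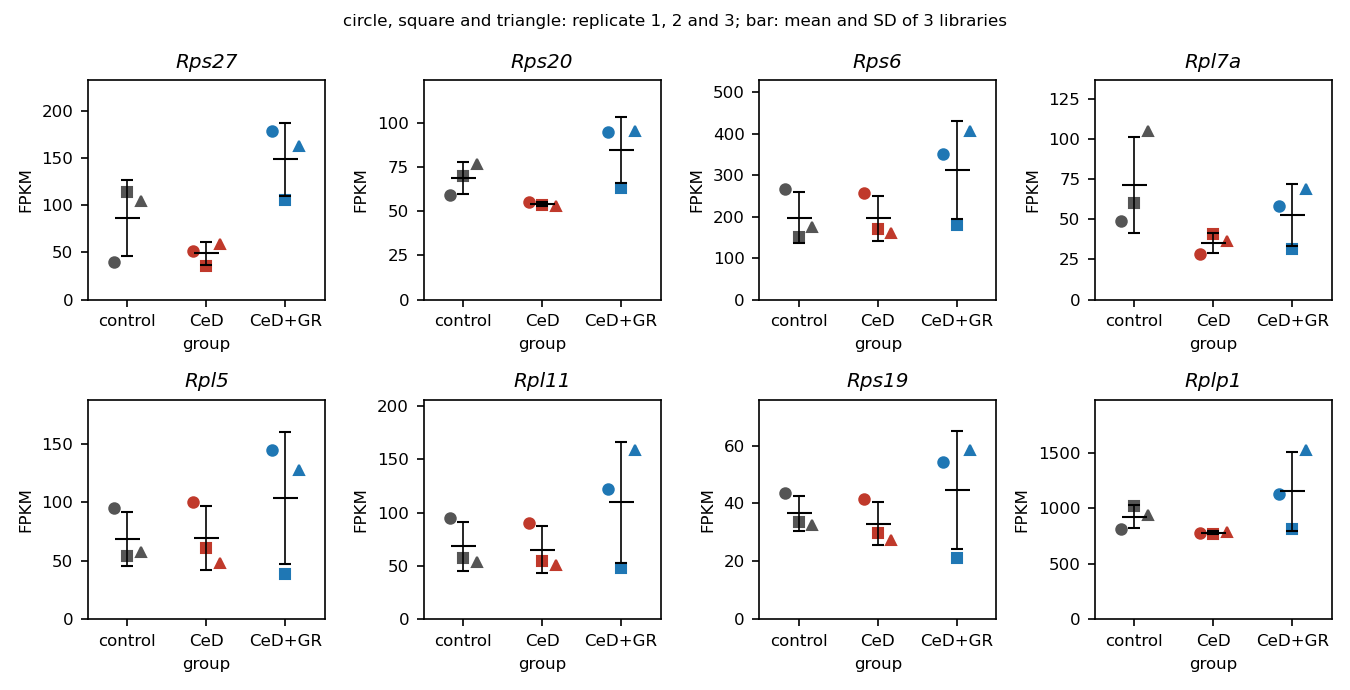
FPKM of 8 ribosomal protein genes in the 9 libraries (circle, square and triangle for replicate 1, 2 and 3), with the mean and SD of each group of 3. For Rps27 and Rps20 all CeD+GR libraries lie above all CeD libraries, while for Rpl5, Rpl11 and Rps19 the CeD+GR 2 library (blue square) lies below the other 8 libraries.

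For Rpl5, Rpl11, Rps19 and Rps6 the groups overlapped. Rpl5 and Rpl11 form with the 5S RNA the particle that binds Mdm2 and so stabilizes p53. Rpl5 stood at 94.7, 53.6 and 57.1 FPKM in control, at 99.99, 60.4 and 47.6 in CeD, and at 144, 38.7 and 127 in CeD+GR (log2 fold change against CeD 0.43, SE 0.52). Rpl11 stood at 94.8, 57.01 and 53.5, at 90.5, 54.3 and 50.6, and at 122, 47.7 and 159 FPKM (0.63, SE 0.47). Rps19, the gene most often mutated in Diamond-Blackfan anemia, stood at 43.6, 33.7 and 32.6, at 41.4, 29.9 and 27.5, and at 54.2, 21.2 and 58.4 FPKM (0.32, SE 0.38). For these 3 genes CeD+GR 2 was the lowest of the 9 libraries. Rps6 (ENSMUSG00000028495, mm10 chromosome 4, 86854660 to 86857412), the substrate that S6 kinase phosphorylates downstream of mTOR, stood at 267, 152 and 174 FPKM in control, at 258, 171 and 159 in CeD, and at 350, 179 and 407 in CeD+GR (0.62, SE 0.39). The adjusted p of limma was 1 for each of the 4. Without CeD+GR 2 the differences of Rpl5, Rpl11, Rps19 and Rps6 were 1.03, 1.14, 0.79 and 0.98. The lowest values were 0.088 for Rpl5 without CeD+GR 1 and, without CeD+GR 3, 0.28 for Rpl11, 0.067 for Rps19 and 0.39 for Rps6.

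The size of this difference rested on single libraries. Without CeD+GR 3 the median was 0.27, with 71 of 76 genes positive, and without CeD+GR 2 it was 0.86. Without CeD+GR 2, 58 of the 76 had an unadjusted p under 0.05 in limma, against 940 of all 14683 genes, and 0 passed adjustment. With all libraries these counts were 7 and 425. They were 1 and 1116 without CeD+GR 1, and 1 and 437 without CeD+GR 3. Without CeD+GR 1 the median was 0.40, with 73 positive, and without CeD 1 it was 0.63, with 76 positive. With every library scaled to the same sum of FPKM the median was 0.29 and 74 of 76 genes were positive, while the median of all genes moved to -0.17. That sum was 494597 FPKM in CeD+GR 3, of which the 8 gastric and Brunner gland markers held 139929. Median-of-ratios rescaling gave a median of 0.49 and quantile normalization 0.47, each with 76 of 76 genes positive. The gastric gland, pancreas and fat cell markers given above set CeD+GR 3, CeD 1 and CeD+GR 2 apart, and with CeD 1 and CeD+GR 3 both left out the median was 0.39, with 72 of 76 positive. The proliferation markers summed to 207, 28.5 and 97.8 FPKM in CeD+GR, and the enterocyte markers to 29648, 34459 and 8921. The proliferation markers were thus lowest in CeD+GR 2, the library with the lowest ribosomal protein levels. Their highest sum, 292 in CeD 1, went with a mean ribosomal protein level of 6.63, below control 3 (sum 44.4, level 6.66). Between the groups, 0 of 10 enterocyte markers had a higher mean log2 level in CeD+GR than in CeD (median -0.54), and 2 of 9 proliferation markers did (median -0.36). The part of these cells in the ribosomal protein levels was not tested.

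CeD+GR was also compared with control, which asks how far the treated model stood from wild type. Of the 76 genes, 65 had higher mean log2 levels in CeD+GR, with a median of 0.29, while 49.7% of all genes were positive. No gene passed in limma or in limma-voom (0 of 76, and 0.0% of all genes). An unadjusted p under 0.05 was found for 0 in either direction, against 1.31% of all genes higher and 1.41% lower. For 0 genes did the groups not overlap, against 2.54% higher and 3.04% lower of all genes. The smallest unadjusted p among the higher genes was that of Rps27 in limma (log2 fold change 0.89, SE 0.43). Rpl24 followed with 0.38 (SE 0.23), from 8.96, 11.3 and 14.3 FPKM in control to 14.4, 12.3 and 18.5 in CeD+GR, then Rps6 with 0.62 (SE 0.39) and the large-subunit gene Rpl7 with 0.45 (SE 0.29). Among the lower genes, Rpl7a had -0.43 (SE 0.38), Rplp2 -0.28 (SE 0.34), Rpl21 -0.35 (SE 0.43) and Rps29 -0.28 (SE 0.36). The adjusted p was 1 for all 8. Without control 3, Rpl7a was -0.11, Rplp2 -0.054 and Rpl21 -0.065, and without control 1 they were -0.65, -0.64 and -0.88. Without control 2, Rplp2 was -0.16, Rpl21 -0.092 and Rps29 -0.12. Without CeD+GR 2, Rpl7a was -0.096, Rpl21 -0.19 and Rps29 0.066. Rps27 was 0.41 without control 1, Rpl24 0.22 without control 1, and without CeD+GR 3 Rps6 was 0.38 and Rpl7 0.27. Without CeD+GR 3 the median was 0.09, with 47 of 76 positive, without CeD+GR 1 it was 0.16, and without CeD+GR 2 it was 0.60. With the same sum of FPKM in every library it was 0.16, with 58 of 76 positive, beside a median of -0.11 for all genes. Median-of-ratios rescaling gave 0.28 and quantile normalization 0.32. Between these groups 0 of 10 enterocyte markers (median -0.61), 0 of 6 T cell markers (median -0.61) and 0 of 6 goblet cell markers (median -0.38) had higher mean log2 levels in CeD+GR. All 4 tested erythroid markers were higher (median 1.52), with sums over the 5 on the list of 25.3, 7.30 and 11.1 FPKM in control and 19.04, 74.5 and 35.4 in CeD+GR, and 2 of the 4 had an unadjusted p under 0.05 in limma. Their part in the ribosomal protein levels was not tested here either. This comparison and the other 2 share libraries, so their values are not independent of each other.

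The encoded proteins range from 25 residues (Rpl41) to 419 (Rpl4), and the libraries differed by this length. Genes were placed in 4 classes of protein length, set after the values were seen. The 10 genes of up to 100 residues had mean log2 levels of 6.41, 7.16 and 7.24 in control, 6.42, 6.22 and 6.57 in CeD, and 7.23, 6.38 and 7.36 in CeD+GR. The 21 genes of over 200 residues had 7.17, 6.64 and 6.69 in control, 7.10, 6.59 and 6.46 in CeD, and 7.56, 6.29 and 7.66 in CeD+GR. Short ones were thus low and long ones high in control 1 against the other controls. The median difference of control 1 from control 2 and 3 was -0.80 for the shortest class, 0.07 and 0.10 for the middle classes and 0.63 for the longest. Rpl38, with 70 residues, stood at 76.3 FPKM in control 1 and at 226 and 265 in control 2 and 3, while Rpl3, with 403 residues, ran the other way at 147, 57.9 and 65.5. Rpl32, which had the widest spread of the 76, stood at 245, 116 and 113 FPKM in control, at 254, 111 and 96.9 in CeD, and at 319, 60.3 and 264 in CeD+GR, with 135 residues. These 3 genes were chosen after their values were seen.

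The difference between control 1 and the other controls correlated with protein length at a Spearman rho of 0.61 over the 76 genes, and at 0.33 over 12368 protein-coding genes. In CeD 1 against CeD 2 and 3 the rho was 0.45 and 0.28. In CeD+GR 1 against CeD+GR 2 it was 0.33 and 0.06, and in CeD+GR 3 against CeD+GR 2 it was 0.27 and -0.01. Genes share their libraries, so they are not independent points. The same order showed in CeD against control, with medians of -0.47, -0.24, -0.21 and -0.05 from the shortest to the longest class and a rho of 0.65 over the 76 genes, against 0.19 over all protein-coding genes. In CeD+GR against CeD the medians were 0.51, 0.52, 0.52 and 0.44 and the rho was -0.16, against -0.27 over all. In CeD+GR against control the medians were 0.02, 0.28, 0.32 and 0.41 and the rho was 0.42, against -0.14 over all. The share of the replicate 1 libraries in these orders was not tested.

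**Figure D5:**
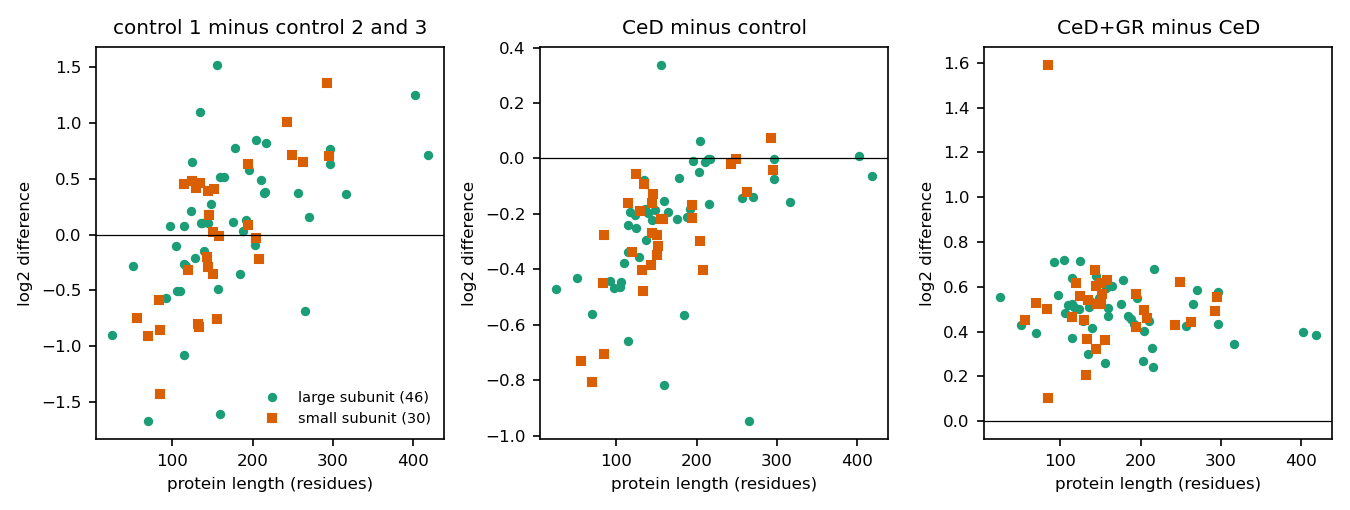
Log2 difference of each of the 76 genes (circles, large subunit; squares, small subunit) against its protein length in residues, for control 1 minus the mean of control 2 and 3 (left), CeD minus control (middle) and CeD+GR minus CeD (right). The points climb with length in the first 2 panels (rho 0.61 and 0.65) and stay flat and above 0 in the last, where Rps27 stands alone at 1.59.

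Many small nucleolar RNAs, which guide the modification of ribosomal RNA, are cut from introns of these genes. Of the 80 genes, 29 contained 1 or more of 56 annotated snoRNA genes on the same strand. For 23 of the 29, annotated exons of the host cover a snoRNA, and the 27 covered snoRNA genes were listed at 0 reads in all libraries. Of the other 29, 24 had reads, at most 90 over the 9 libraries (Snord72, in Rpl37). The 23 hosts with a covered snoRNA had a median log2 difference of 0.47 between CeD+GR and CeD, and the 47 tested genes with no snoRNA 0.51. Against control, CeD had medians of -0.19 and -0.22 in these 2 sets. The 6 hosts without a covered snoRNA had medians of 0.45 for CeD+GR against CeD and -0.31 for CeD against control. Hosts with a covered snoRNA and genes with none thus gave close values in both comparisons. Their median protein lengths differed, at 203 and 143 residues, and the differences between these sets were not tested.

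Genes around the ribosome were set beside them from lists that also held no gene passing in limma or limma-voom. Medians of these lists are also given with every library scaled to the same sum of FPKM, which moved the median of all genes to 0.08 for CeD against control and to -0.17 for CeD+GR against CeD. Among 7 ribosomal proteins and companions outside the naming rule, 0 were higher in CeD than in control (median -0.08, same-sum 0.0067) and 6 were higher in CeD+GR than in CeD (median 0.30, same-sum 0.15). They included Fau, the precursor of the small-subunit protein eS30, at 478, 1048 and 877 FPKM in control, 397, 655 and 779 in CeD and 640, 1014 and 509 in CeD+GR. Of 19 translation factors and similar genes known to have TOP mRNAs, 3 were higher in CeD than in control (median -0.08, same-sum 0.0034) and 18 higher in CeD+GR than in CeD (median 0.33, same-sum 0.12). Among them Eef1d, a subunit of the elongation factor complex, was the gene at an unadjusted p under 0.05, with 9.04, 8.81 and 8.65 FPKM in CeD and 10.3, 12.5 and 19.6 in CeD+GR (log2 fold change 0.60, SE 0.24, limma adjusted p = 1). These 19 genes had mean log2 levels of 5.66 to 5.95 in control and CeD and of 6.27, 5.73 and 6.25 in CeD+GR.

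Factors that assemble ribosomes followed the replicate 1 libraries more than the groups. The 37 assembly genes had mean log2 levels of 3.00, 2.13 and 2.33 in control, 3.12, 2.29 and 2.24 in CeD, and 2.96, 1.93 and 3.28 in CeD+GR, so that replicate 1 of each group and CeD+GR 3 were high. Of them 21 were higher in CeD than in control (median 0.04, same-sum 0.12) and 27 higher in CeD+GR than in CeD (median 0.16, same-sum -0.03). Nop10, a part of box H/ACA particles that modify ribosomal RNA, had the smallest unadjusted p of this list in CeD+GR against control, with 12.7, 6.59 and 7.06 FPKM in control and 18.3, 10.02 and 31.1 in CeD+GR (log2 fold change 1.05, SE 0.45, limma adjusted p = 1). Of 12 genes of RNA polymerase I and its regulators, 6 were higher in CeD (median -0.02, same-sum 0.05) and 9 higher in CeD+GR than in CeD (median 0.08, same-sum -0.11). Of 12 genes that regulate TOP mRNAs through mTOR, 7 were higher in CeD (median 0.12, same-sum 0.20) and 6 higher in CeD+GR than in CeD (median 0.02, same-sum -0.18). Eif4ebp1, an inhibitor of cap-dependent translation that mTOR inactivates, stood at 10.3, 4.67 and 4.67 FPKM in control, at 9.30, 7.11 and 10.7 in CeD, and at 12.4, 8.38 and 15.3 in CeD+GR, a limma log2 fold change of 0.88 against control (SE 0.35, adjusted p = 1).

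Of 10 tested targets of p53, which ribosomal stress can activate, 4 were higher in CeD (median -0.06, same-sum 0.03) and 4 higher in CeD+GR than in CeD (median -0.09, same-sum -0.27). Phlda3, such a target, had the smallest unadjusted p of this list in CeD+GR against control, with 1.69, 1.10 and 1.44 FPKM in control, 2.27, 2.40 and 4.05 in CeD, and 1.37, 4.48 and 3.92 in CeD+GR. Of 7 tested long noncoding hosts of snoRNAs, whose RNAs also begin with TOP motifs, 1 was higher in CeD than in control (median -0.33, same-sum -0.25) and 7 higher in CeD+GR than in CeD (median 0.35, same-sum 0.15). Snhg8, 1 of these hosts, stood at 10.5, 20.7 and 18.1 FPKM in control, at 7.63, 9.36 and 15.9 in CeD, and at 14.3, 22.3 and 14.3 in CeD+GR.

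Mitochondrial gene lists were a comparison from outside the cytosolic ribosome. Of 77 genes for mitochondrial ribosomal proteins, 17 were higher in CeD than in control (median -0.12, same-sum -0.04) and 66 higher in CeD+GR than in CeD (median 0.21, same-sum 0.0059). Of 74 nuclear genes of the respiratory chain, 7 were higher in CeD than in control (median -0.21, same-sum -0.12), and 38 higher in CeD+GR than in CeD (median 0.01, same-sum -0.20). Beside them, the same-sum medians of the cytosolic ribosomal protein genes were -0.13 and 0.29. The rescaling moved all genes by about the same amount, so a list with a median near 0 can change sign under it. Under median-of-ratios rescaling the CeD+GR against CeD medians were 0.19 for mitochondrial ribosomal proteins and -0.0094 for the respiratory chain. For the ribosome assembly genes it was 0.14. No test of a difference between lists was made.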

How the data were processed

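The submitters deposited 1 table of FPKM per gene for 9 duodenum libraries, with mm10 coordinates and gene lengths. Ribosomal RNA depletion and directional libraries are stated per the labels' protocols. DESeq2 1.20.0, featureCounts 1.5.0-p3, HISAT2 2.0.5, fastp and mm10 are listed without roles, per the submitters' processing notes. For the annotation release and the strand setting, the tool settings were not given in the sources used here. FPKM times deposited length gave whole reads within 0.1 for 100% of values. Groups come from the labelled treatments.

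Values were log2(FPKM + 0.5). Genes averaging 0.5 FPKM or more were fitted with limma 3.58.1 (R 4.3.3) in 1 group-means model over 9 libraries, with a mean-variance trend, two-sided, Benjamini-Hochberg adjusted over all 14683 genes at 0.05. An exact permutation test of 3 against 3 cannot go below 0.1. The model was tested on simulated data. Rpl and Rps symbols matched GENCODE M21 for 80 of 80 genes; protein length is the coding length of its principal transcript. Biopython 1.88 aligned Rps10 with Rps10-ps2.

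Same-numbered control and CeD libraries deviated together, with correlations of 0.71, 0.37 and 0.41 for replicates 1, 2 and 3. Control 2 and CeD 3, with different numbers, correlated at 0.46, above the same-numbered libraries of replicates 2 and 3. Whether the numbers pair the samples thus cannot be told from these correlations. The main fit did not pair the samples, and a fit with the replicate number as a block is given beside it. CeD+GR 3 correlated at -0.11 with control 3 and at -0.12 with CeD 3, so same-numbered libraries did not all deviate together there.

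Members, lists and the naming rule were chosen with earlier results of these data known. The rule names, per comparison, up to 4 members per direction by unadjusted p, the 4 highest and 4 lowest by mean FPKM, stalk proteins and Rpsa, members ending in l with their partners, Rps6, Rpl5, Rpl11, Rps19 and Rps20, members under the filter, and up to 2 genes per other list. Others, such as Rpl38, Rpl32 and the lists of genes without overlap, were named after their values were seen. Alternatives were pseudocounts of 0.1 and 1, other filters and scalings, other fits, replicates 2 and 3 only, leaving out libraries, limma-voom on recovered reads and, added after seeing the data, the reads of members and their pseudogenes together. Length classes, start-site windows, transcript overlap, snoRNA hosts and the rescaled list medians were also chosen after seeing the data. Single values of 2 members are not reported here, though they enter every count and fit.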

Additional observations from a re-analysis of the deposited data

How the results depend on the processing

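No ribosomal protein gene passed in limma under any alternative run, and the sign of the median over the 76 genes stayed the same in each comparison under every alternative. Over the alternatives that leave out 1 library, the median ran from -0.34 to -0.15 for CeD against control, from 0.27 to 0.86 for CeD+GR against CeD, and from 0.09 to 0.60 for CeD+GR against control. The replicate number as a block left the medians at -0.21, 0.50 and 0.29 and the number of genes passing at 0. It gave 2, 8 and 0 ribosomal protein genes at an unadjusted p under 0.05, against 1, 7 and 0 without it. Of all 14683 genes, 193, 805 and 643 had such a p with the block, and 103, 425 and 400 without it. Scaling every library to the same sum of FPKM moved the median of all genes to 0.08, -0.17 and -0.11, and that of the ribosomal protein genes to -0.13, 0.29 and 0.16. Median-of-ratios rescaling gave the ribosomal protein genes -0.20, 0.49 and 0.28, and quantile normalization gave -0.15, 0.47 and 0.32. Rps29 in CeD+GR against control (-0.28) ran from -0.53 without control 1 to 0.066 without CeD+GR 2. Leaving out libraries gave between 0 and 1 genes passing among all genes in CeD+GR against control, with the 1 found without control 1. Array weights, which give uneven libraries less weight, raised the ribosomal protein genes at an unadjusted p under 0.05 to 25, 43 and 13, with 0 passing adjustment. The same weights raised the counts over all 14683 genes to 1354, 686 and 873. Each of the 76 held at least 134 reads per library, so depth limits mainly Rps10, Rpl3l, Rpl39l and Rpl10l, which missed the filter.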
